A study of Homo sapiens with 6 samples.

Results

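The 76 genes described here are named for proteins of the human mitochondrial ribosome. They were taken from a table of 17471 genes by symbol alone, as every *MRPL* or *MRPS* symbol followed by a number, without pseudogenes. No measured value entered this rule, but the group was chosen with earlier results of these data known. Of 79 rows that began this way, 3 were pseudogenes and were set aside, and all 76 remaining genes passed the filter on low values. By their place in the ribosome, 49 belonged to the large subunit and 26 to the small subunit. *MRPS30* and *MRPS18A* were counted with the large subunit, where their proteins sit in the human particle. *MRPS36*, whose product is now placed in a dehydrogenase complex, was counted with neither subunit. Some proteins of the ribosome carry other symbols, and 7 of these are described further below.

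RNA was sequenced from AN3CA, a human endometrial cancer cell line that expresses *PAX2*, a paired-box transcription factor. The 3 shPAX2 libraries came from cells carrying a lentiviral short hairpin RNA against *PAX2*, and the 3 shEV libraries from cells carrying the empty hairpin vector. All cells had been through puromycin selection, and the control is called scrambled elsewhere in the study's text. A single hairpin was used, and no source says whether the libraries of a group came from separate transductions or from 1 culture, so the p-values measure only the spread between these libraries. Values are TPM, reads per gene scaled by gene length and library total. Fold changes are differences of log2(TPM + 0.5), which understates the change of low genes. The libraries held 10730909 to 18221859 reads in shEV and 19422615 to 29405787 in shPAX2, so every shPAX2 library was the deeper. *PAX2* was at 4.03, 3.66 and 2.74 TPM in shEV and at 0.916, 0.723 and 1.17 TPM in shPAX2. Its groups did not overlap, with a log2 fold change of -1.47 (SE 0.18, limma adjusted p = 0.000294). The mean TPM of *PAX2* in shPAX2 was 0.269 of that in shEV, a larger fall than this log2 fold change gives. The labels call the cells epithelial, but *CDH1*, *EPCAM*, *KRT8* and *KRT19* were below 0.3 TPM in the mean of either group, and of 10 epithelial markers only *KRT18* passed the filter, at 11.2 TPM in shEV and 14.9 TPM in shPAX2. Of 5 mesenchymal markers 2 passed the filter, the filament gene *VIM* at 4212 and 3808 TPM and *ZEB1* at 86.3 and 85.0 TPM. The other 3 did not pass it. *FN1* was at 0.608 and 0.194 TPM, *CDH2* at 0.0486 and 0.0263 TPM, and *TWIST1* at 0 and 0.0484 TPM in shEV and shPAX2. The markers therefore give no clear cell type.

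The mitochondrial ribosome translates the few messages of the mitochondrial genome, all of which encode membrane subunits of the respiratory chain and the ATP synthase. Its RNAs are transcribed inside the organelle, while each of its proteins is encoded in the nucleus, made in the cytosol and imported. Many of the proteins descend from the bacterial ribosome and keep bacterial numbering, and others are numbered as specific to mitochondria. The genes lie scattered over nearly all chromosomes, and their promoters are known for sites of NRF1, of ETS factors such as GABP and of YY1.

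Promoter windows of 5 of the genes are shown first, to let the shared motifs be read beside the values that follow. The windows run from 250 bases before to 50 bases after the start of the gene, 5′ to 3′ on its own strand, and are RefSeq sequence of GRCh38.p14. The first 3 belong to the *MRPS18* paralogues, the next to a higher gene and the last to a lower gene. The set was picked after the values were seen. Capitals mark matches on either strand to an NRF1-type motif (GCATGCGC), an ETS-type motif (CCGGAAG) or a YY1-type motif (AAGATGGC).
MRPS18A (chr6:43687742-43688041, minus strand): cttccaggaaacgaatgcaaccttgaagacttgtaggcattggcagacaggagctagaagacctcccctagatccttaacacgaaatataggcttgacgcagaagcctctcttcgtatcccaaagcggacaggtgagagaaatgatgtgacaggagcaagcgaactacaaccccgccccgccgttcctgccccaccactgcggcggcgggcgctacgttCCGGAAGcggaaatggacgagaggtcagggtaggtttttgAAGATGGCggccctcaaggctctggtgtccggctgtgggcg
MRPS18B (chr6:30617590-30617889, plus strand): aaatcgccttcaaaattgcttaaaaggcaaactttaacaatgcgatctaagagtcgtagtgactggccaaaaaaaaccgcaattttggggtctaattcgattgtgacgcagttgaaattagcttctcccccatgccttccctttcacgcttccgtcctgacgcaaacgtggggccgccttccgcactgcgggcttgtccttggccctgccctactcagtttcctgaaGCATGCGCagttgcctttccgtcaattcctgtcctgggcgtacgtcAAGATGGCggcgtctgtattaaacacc
MRPS18C (chr4:83455808-83456107, plus strand): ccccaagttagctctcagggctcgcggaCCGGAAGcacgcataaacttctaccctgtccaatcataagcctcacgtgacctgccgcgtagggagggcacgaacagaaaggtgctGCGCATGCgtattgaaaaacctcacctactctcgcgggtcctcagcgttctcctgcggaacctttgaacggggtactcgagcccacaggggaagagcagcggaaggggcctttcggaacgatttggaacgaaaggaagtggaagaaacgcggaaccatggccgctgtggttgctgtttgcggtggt
MRPL33 (chr2:27771469-27771768, plus strand): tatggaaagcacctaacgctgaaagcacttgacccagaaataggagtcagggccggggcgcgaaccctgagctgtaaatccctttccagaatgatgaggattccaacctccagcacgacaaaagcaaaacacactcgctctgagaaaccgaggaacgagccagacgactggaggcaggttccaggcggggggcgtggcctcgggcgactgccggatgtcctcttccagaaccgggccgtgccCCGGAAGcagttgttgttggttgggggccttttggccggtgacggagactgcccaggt
MRPL32 (chr7:42932126-42932425, plus strand): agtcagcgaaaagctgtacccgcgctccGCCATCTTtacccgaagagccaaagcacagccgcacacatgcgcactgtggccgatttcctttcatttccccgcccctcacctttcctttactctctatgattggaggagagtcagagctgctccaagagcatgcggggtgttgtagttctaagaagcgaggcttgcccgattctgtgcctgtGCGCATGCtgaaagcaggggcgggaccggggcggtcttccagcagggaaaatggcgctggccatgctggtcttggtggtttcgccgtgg

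A window was listed for 67 of the 76 genes, 83 windows in all, since some genes have several starts. The ETS-type letters were found in 38.6% of these windows, against 10.3% of all 35116 promoter windows of the same length. The YY1-type letters were found in 27.7% of them, against 2.89% of all windows. The NRF1-type letters were found in 7.23%, against 3.05%. At least 1 of the 3 motifs was present in 55.4% of the windows, against 14.9% of all, and no ETS-type match shared bases with a YY1-type match in any of them. Of the genes with a window, the ETS-type letters were present for 11 of 15 that were higher in shPAX2, for 1 of 4 that were lower and for 17 of 48 that did not pass the test. The YY1-type letters were present for 5 of the 15, 1 of the 4 and 15 of the 48, and the NRF1-type letters for 3, 1 and 2. Such matches describe the sequence and are not evidence of binding, and no test was made of these shares.

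Most mitochondrial ribosomal protein genes moved little between the shEV and shPAX2 libraries. With limma, 21 of the 76 passed an adjusted p of 0.05, which is 27.6% against 42.8% of all 13163 genes tested. Of these, 17 were higher in shPAX2 (22.4%, against 12.2% of all genes) and 4 were lower (5.26%, against 30.5%). No gene of the group reached a log2 fold change of 1 in either direction, while 4.54% of all genes passed the test with a change of that size. The shEV and shPAX2 values did not overlap for 29 of the 76 (38.2%), higher for 22 and lower for 7, against 54.9% of all genes in either direction. The median log2 fold change was 0.08, with quartiles of -0.01 and 0.18. The median of all genes was -0.10, with quartiles of -0.32 and 0.10, so a log2 fold change of 0 was above the middle of the transcriptome. Scaling by median-of-ratios moved the median of all genes to 0.01 and that of the ribosomal protein genes to 0.19. With that scaling 40 of the 76 were higher and 1 was lower, while the shares over all genes became 21.8% higher and 19.6% lower, so the number of calls depended on the scaling while higher calls outnumbered lower ones under either scaling. Leaving out single libraries gave 13 to 32 calls, with 13 without shEV replicate 3 and 32 without shPAX2 replicate 1.

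**Figure D1:**
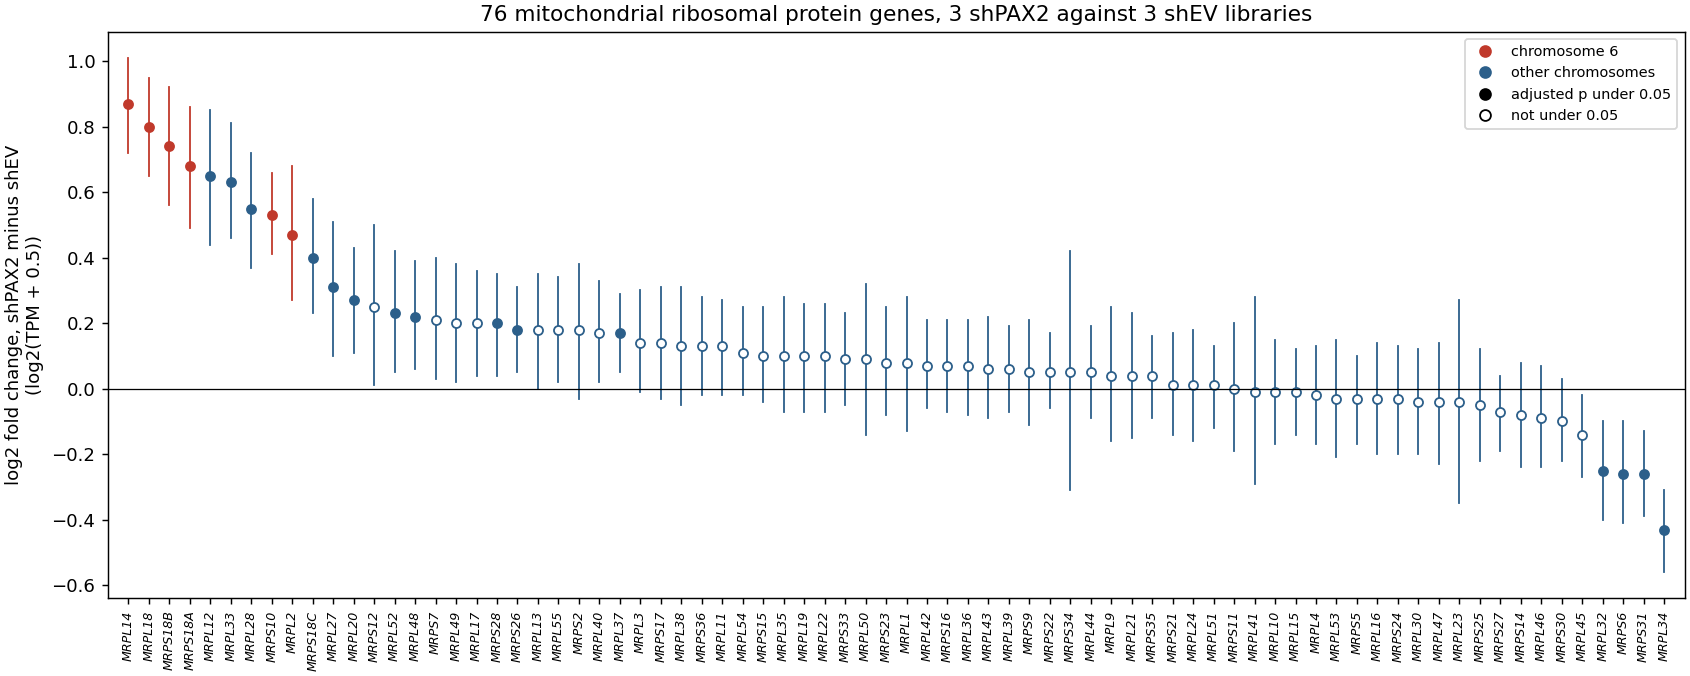
Log2 fold change of each of the 76 genes (shPAX2 minus shEV, log2(TPM + 0.5)), ordered along the x axis from the highest to the lowest; lines are 95% confidence intervals and filled points passed an adjusted p of 0.05. The 6 genes on chromosome 6, in red, lie between 0.47 and 0.87, and most other genes lie close to 0.

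The calls were spread over both subunits and both evolutionary classes. Of the large subunit genes, 12 of 49 were higher and 2 were lower (24.5% and 4.08%), with a median log2 fold change of 0.09. Of the small subunit genes, 5 of 26 were higher and 2 were lower (19.2% and 7.69%), with a median of 0.06. Over all genes tested, 12.2% were higher and 30.5% were lower, with a median of -0.10. Among the 45 genes with a bacterial homologue 10 were higher and 3 lower (22.2% and 6.67%, median 0.10). Among the 30 that the ribosome nomenclature numbers as mitochondria-specific 7 were higher and 1 lower (23.3% and 3.33%, median 0.07). *MRPS18A* and *MRPS18B* carry mitochondria-specific numbers and were counted with these 30, although they are paralogues of a bacterial protein. By site in the large subunit, 1 of 5 stalk genes (20%) and 2 of 5 genes of the central protuberance (40%) were higher. Around the exit tunnel 0 of 6 genes passed limma's adjusted test (1 at an unadjusted p under 0.05, 0 with voom). Over all genes 42.8% passed it. The differences between these classes were not tested.

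Summed over the group, the transcripts made up 6869, 6784 and 6629 TPM in the shEV libraries and 7110, 7687 and 7543 TPM in the shPAX2 libraries. The 3 shPAX2 sums were above the 3 shEV sums, with means of 6761 ± 122 and 7447 ± 300 TPM (SD, n = 3 each) and a ratio of 1.10. The ratio was 1.12 for the large subunit and 1.06 for the small subunit. The 6 genes on chromosome 6 went from 412 ± 8.86 to 686 ± 44.5 TPM, a ratio of 1.67, and the other 70 from 6349 ± 120 to 6760 ± 255 TPM, a ratio of 1.06. The median deviation of the 76 genes from their own means, on the log2 scale, was -0.04, -0.04 and -0.06 in shEV and -0.02, 0.09 and 0.06 in shPAX2. The first shPAX2 library therefore stood nearer to shEV than the other shPAX2 libraries did.

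The 4 highest fold changes belonged to genes on chromosome 6. All 6 ribosomal protein genes on that chromosome were higher in shPAX2, with a median log2 fold change of 0.71. Of all 629 genes tested on chromosome 6, 62.3% were higher, and their median was 0.39. The medians of the 22 other chromosomes with at least 50 genes tested lay between -0.17 and -0.06. Each of the 6 genes was above the chromosome 6 median, by 0.08 for *MRPL2* to 0.48 for *MRPL14*. The part that the chromosome-wide difference had in these values was not tested, and no DNA measurement was analysed here.

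*MRPL14*, a conserved protein of the large subunit, changed most. It was at 83.7, 81.7 and 81.3 TPM in shEV and at 140.1, 160.3 and 152 TPM in shPAX2, with a log2 fold change of 0.87 (SE 0.06, limma adjusted p = 1.78e-05). The 2 groups were far apart next to the spread within them. In GRCh37 the gene spans chr6:44081188-44095189 on the minus strand. The 25 other genes tested within 1 Mb had a median log2 fold change of 0.51, and 20 of them were higher. Of all chromosome 6 genes, 92.5% had a lower fold change than *MRPL14*.

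*MRPL18* encodes a protein of the central protuberance, the knob of the large subunit that faces the small subunit. It was at 162, 151 and 155 TPM in shEV and at 252, 289.5 and 274 TPM in shPAX2 (log2 fold change 0.80, SE 0.07, limma adjusted p = 3.59e-05). It lies at chr6:160210844-160219468, far from the others on the opposite arm, and the 8 other genes tested within 1 Mb had a median of 0.58. The groups did not overlap, and *MRPL18* was the fourth most abundant of the 76 transcripts.

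The *MRPS18* family consists of 3 human paralogues of 1 bacterial protein, each of which occupies a different position, *MRPS18A* in the large subunit and *MRPS18B* and *MRPS18C* in the small subunit. All 3 were higher in shPAX2. *MRPS18A* (chr6:43638939-43655528) was at 67.5, 69.2 and 68.7 TPM in shEV and at 95.9, 115 and 119.5 TPM in shPAX2, a log2 fold change of 0.68 (SE 0.08, limma adjusted p = 0.00031). *MRPS18B* (chr6:30585617-30594172) was at 12.2, 11.3 and 10.4 TPM in shEV and at 18.0, 19.8 and 19.5 TPM in shPAX2, a log2 fold change of 0.74 (SE 0.08, limma adjusted p = 0.000156). *MRPS18C* (chr4:84377085-84390888), away from chromosome 6, was at 60.0, 61.3 and 60.4 TPM in shEV and at 71.2, 82.2 and 87.7 TPM in shPAX2, a log2 fold change of 0.40 (SE 0.08, limma adjusted p = 0.00336).

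None of the 3 paralogues overlapped between groups. The 38 other genes tested within 1 Mb of *MRPS18A* had a median log2 fold change of 0.57, and 32 of them were higher. Around *MRPS18B* the median was 0.41, and 23 of 36 were higher. The change of *MRPS18C* ran against its surroundings, since the 13 other genes tested within 1 Mb had a median of -0.15. *MRPS18C* shares 40.2% of its exon bases with *FAM175A* on the opposite strand, a gene that was lower in shPAX2 (log2 fold change -0.47). *MRPS18A* shares 50.9% of its exon bases with *RSPH9* on the opposite strand, which was close to 0 TPM in all libraries. The low TPM of *MRPS18B* is no guide to its level, because the length implied by its value was 8.75 times the annotated exon length relative to the typical gene, whereas the other genes of the group lay between 0.098 and 1.49. Of 109 tested genes over a ratio of 4, 80 lay on chromosome 6. The ratio of mean TPM between groups, 1.695 for *MRPS18B*, does not depend on that length. The log2 fold change does slightly, since the added 0.5 weighs more at a lower TPM.

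The remaining chromosome 6 genes changed less. *MRPS10*, a conserved protein of the small subunit head, was at 65.1, 63.4 and 68.1 TPM in shEV and at 95.6, 94.9 and 94.4 TPM in shPAX2 (log2 fold change 0.53, SE 0.05, limma adjusted p = 0.00011). *MRPL2*, a conserved protein close to the peptidyl transferase centre, was at 29.3, 25.9 and 29.7 TPM in shEV and at 34.6, 41.5 and 42.5 TPM in shPAX2 (log2 fold change 0.47, SE 0.09, limma adjusted p = 0.00317). Their neighbours within 1 Mb had a median of 0.51 in each case, so *MRPS10* and *MRPL2* lay close to the genes around them.

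**Figure D2:**
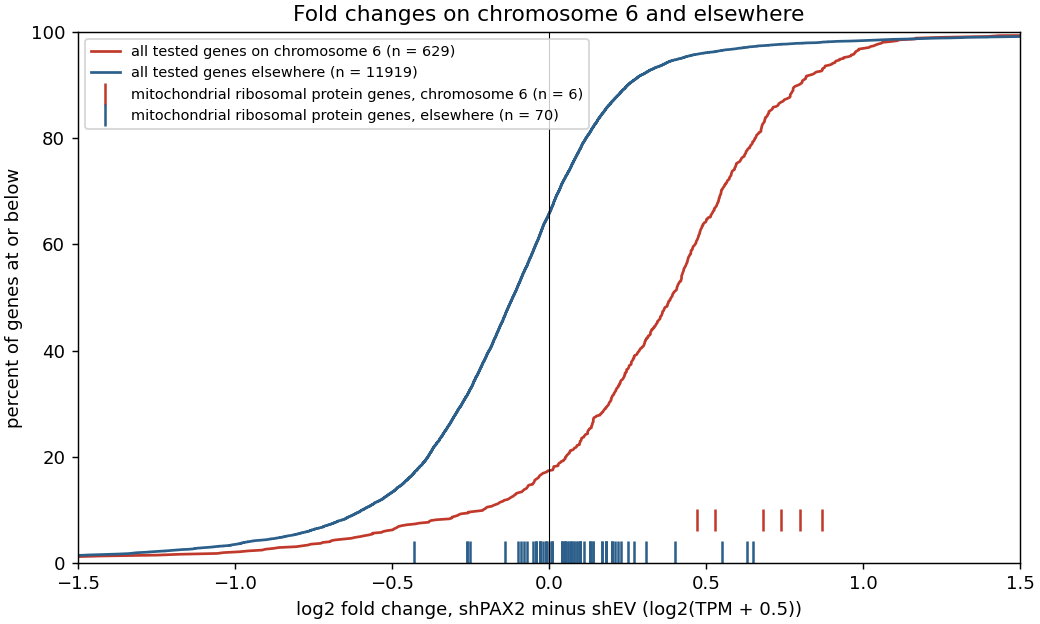
Cumulative share of all tested genes (y axis, percent at or below) by log2 fold change (x axis, shPAX2 minus shEV), for chromosome 6 in red and the other chromosomes in blue, with ticks for the mitochondrial ribosomal protein genes. The red curve is shifted to the right, with a median of 0.39 against -0.12, and the 6 red ticks lie at 0.47 or above. The x axis is cropped at 1.5 in either direction.

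Away from chromosome 6, 11 of 70 genes were higher and 4 were lower (15.7% and 5.71%), with a median log2 fold change of 0.07. These counts were 4 higher and 4 lower without shPAX2 replicate 2, 4 and 3 without shEV replicate 3, 5 and 3 without shEV replicate 2, 7 and 4 without shPAX2 replicate 3, 22 and 4 without shPAX2 replicate 1, and 34 and 1 with median-of-ratios scaling. Of all genes placed on the other chromosomes, 9.82% were higher and 32.2% were lower, with a median of -0.12. *MRPL12*, *MRPL33* and *MRPL28* had the largest increases among the 70, and all 3 belong to the large subunit.

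*MRPL12* forms the flexible stalk that recruits translation factors to the ribosome, and its product is also described as a partner of the mitochondrial RNA polymerase. It was at 33.2, 34.6 and 28.5 TPM in shEV and at 46.4, 55.3 and 49.6 TPM in shPAX2 (log2 fold change 0.65, SE 0.09, limma adjusted p = 0.000647). The other stalk genes *MRPL10*, *MRPL11*, *MRPL53* and *MRPL54* had log2 fold changes of -0.01, 0.13, -0.03 and 0.11, and none passed the adjusted test, an unadjusted p of 0.05 or voom. The 46 other genes tested within 1 Mb of *MRPL12* on chromosome 17 had a median of -0.04.

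*MRPL33*, a small conserved protein, was at 172, 142 and 152 TPM in shEV and at 231, 241 and 249 TPM in shPAX2 (log2 fold change 0.63, SE 0.08, limma adjusted p = 0.000294). Its annotated exons share 324 bases with *BRE* on the same strand, where *BRE* had a log2 fold change of 0.07 and did not pass the test. *MRPL28* was at 93.8, 99.6 and 84.4 TPM in shEV and at 128, 145 and 132 TPM in shPAX2 (log2 fold change 0.55, SE 0.08, limma adjusted p = 0.000672). The neighbouring genes within 1 Mb of *MRPL33* and *MRPL28* had medians of -0.06 and -0.05.

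The other 7 genes that were higher had log2 fold changes from 0.17 to 0.31. They were *MRPL27*, which reaches into the peptidyl transferase centre, the abundant *MRPL20*, and *MRPL52*, *MRPL48*, *MRPS28*, *MRPS26* and *MRPL37*. Their limma adjusted p ran from 0.0151 for *MRPL20* to 0.0491 for *MRPS28*. Each was called in 7 to 14 of 16 alternative analyses, and leaving out either shEV replicate 3 or shPAX2 replicate 2 ended the call for all 7. The other 10 higher genes, those on chromosome 6 among them, were called in all 16.

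*MRPL34* fell most. This small conserved protein of the large subunit was at 56.4, 54.5 and 54.2 TPM in shEV and at 39.5, 40.5 and 42.0 TPM in shPAX2 (log2 fold change -0.43, SE 0.05, limma adjusted p = 0.000382). Its 41 neighbours within 1 Mb on chromosome 19 had a median of -0.05, and *ABHD8*, which shares 14.6% of its exon bases on the opposite strand, had a log2 fold change of -0.05. *MRPL34* was the only one of the 4 lower genes that still passed the test with median-of-ratios scaling, and it passed in all 16 alternative analyses.

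The other 3 lower genes changed by about the same amount. *MRPS31*, a small subunit protein found in mitochondria only, was at 37.7, 38.3 and 37.9 TPM in shEV and at 32.7, 32.3 and 30.1 TPM in shPAX2 (log2 fold change -0.26, SE 0.06, limma adjusted p = 0.0071). *MRPS6*, a conserved small subunit protein, was at 88.0, 89.6 and 85.4 TPM in shEV and at 77.3, 75.9 and 67.2 TPM in shPAX2 (log2 fold change -0.26, SE 0.07, limma adjusted p = 0.0142). *MRPL32*, whose product is trimmed by a mitochondrial protease before it joins the large subunit, was at 183, 181 and 191 TPM in shEV and at 143, 157 and 166 TPM in shPAX2 (log2 fold change -0.25, SE 0.07, limma adjusted p = 0.0146).

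In none of these did a shPAX2 library reach the lowest shEV library. *MRPS6* contains the transporter gene *SLC5A3* within its span on the same strand, with 265 shared exon bases. *SLC5A3* fell from 17.0 ± 0.354 to 9.82 ± 0.263 TPM (SD, n = 3 each; log2 fold change -0.76, limma adjusted p = 4.4e-05), and reads of the shared bases cannot be told apart. With median-of-ratios scaling the changes were -0.15 for *MRPS31* (limma adjusted p = 0.0674), -0.14 for *MRPS6* (0.117) and -0.14 for *MRPL32* (0.105).

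**Figure D3:**
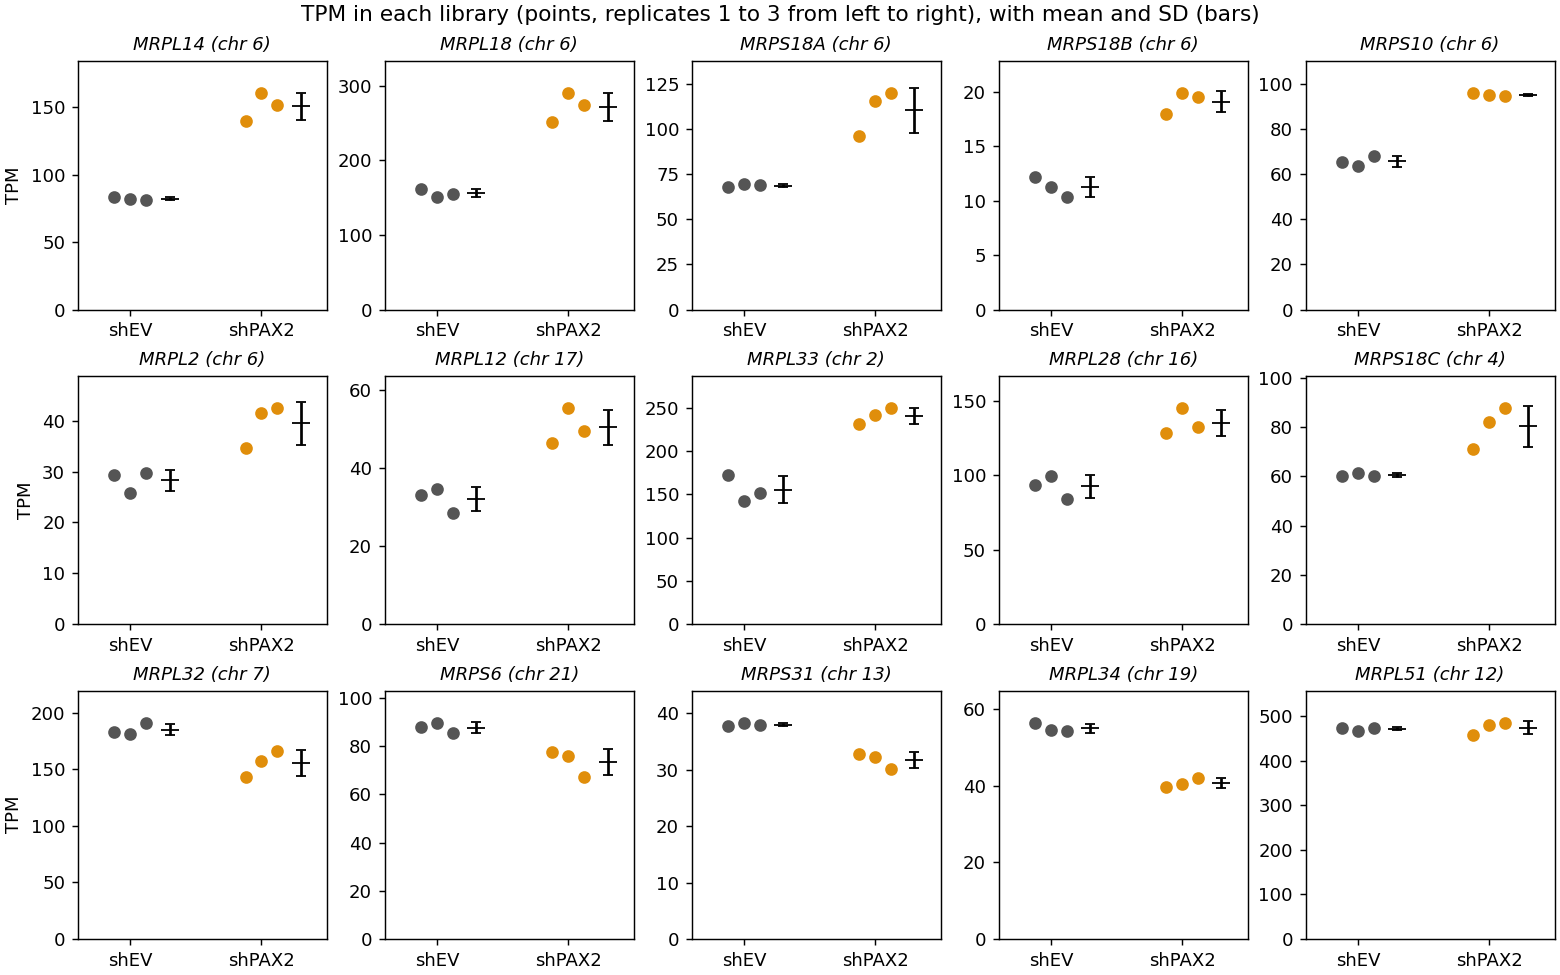
TPM of 15 of the genes in each library (y axis from 0, points from left to right for replicates 1 to 3 of shEV and of shPAX2), with black bars for the mean and SD of each group. The groups are separate in every panel except that of *MRPL51*, and the scale differs between panels.

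Of the genes with a negative change that did not pass the test, *MRPL45* had the lowest value. It is an exit tunnel protein that helps to hold the ribosome at the inner membrane. It was at 43.4, 43.1 and 45.7 TPM in shEV and at 38.3, 40.9 and 40.3 TPM in shPAX2 (log2 fold change -0.14, SE 0.06, limma adjusted p = 0.0693). Its groups did not overlap, but the change did not pass the test. *MRPS30*, *MRPL46* and *MRPS14* had log2 fold changes of -0.10, -0.09 and -0.08, with limma adjusted p of 0.178, 0.333 and 0.368, and each turned slightly positive with median-of-ratios scaling (0.02, 0.03 and 0.03).

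By level, *MRPL51* stood first among the 76, at 475, 468 and 474 TPM in shEV and at 457, 481 and 485 TPM in shPAX2. Its groups overlapped, and the log2 fold change was 0.01 (95% confidence interval -0.12 to 0.13, limma adjusted p = 0.947). *MRPS15* followed, with group means of 215 ± 14.6 TPM for shEV and 231 ± 6.65 TPM for shPAX2 (± SD over 3 libraries; log2 fold change 0.10, limma adjusted p = 0.228). *MRPL20*, *MRPL18* and *MRPL33* completed the 5 most abundant, and these 3 were higher in shPAX2. Leaving out *MRPS18B*, for the reason given above, mean levels ran from 20.7 TPM for *MRPL19* to 473 TPM for *MRPL51*.

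Each gene was covered by 153 to 6212 reads in each library, and the median SD within groups was 0.09 on the log2 scale, against 0.10 for all genes. *MRPS34* had the widest spread, at 147, 139 and 112 TPM in shEV and 157, 144 and 113 TPM in shPAX2. *MRPL23* and *MRPL41* came next, and all 3 were lowest in the third library of either group. The SD of these genes was 0.23, 0.20 and 0.19, against a lowest value of 0.02 in the group.

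Other genes of mitochondrial translation were tested in lists of their own. The 7 listed ribosomal proteins with other symbols, such as *DAP3* and *PTCD3*, were counted with limma. There 0 were lower (0 at an unadjusted p under 0.05, and 0 with voom), against 30.5% of all genes tested. In this list 1 gene was higher (14.3%, against 12.2% of all genes tested). That gene was *AURKAIP1*, a small subunit protein, which went from 103 ± 3.18 to 122 ± 10.2 TPM (log2 fold change 0.25, limma adjusted p = 0.0202). *CHCHD1* was the lowest of the 7, at -0.00.

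Of 24 assembly factors, 5 were higher and 2 were lower (20.8% and 8.33%, against 12.2% and 30.5% of all genes tested). *NGRN*, which binds the large ribosomal RNA, went from 152 ± 6.79 to 224 ± 12.9 TPM (SD, n = 3 each; log2 fold change 0.56, limma adjusted p = 0.000215). The rRNA methyltransferase genes *FTSJ2* and *RNMTL1* (log2 fold changes 0.33 and 0.34), the small subunit rRNA dimethyltransferase gene *TFB1M* (0.48) and *MALSU1*, a large subunit assembly factor (0.32), were the others that were higher. *TFB1M* lies on chromosome 6. *RBFA*, which acts on the small subunit, and the GTPase gene *GTPBP10* were lower, with log2 fold changes of -0.29 and -0.21. *TRUB2* had the lowest value, -0.31, without passing the test (limma adjusted p = 0.0825).

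Of 15 translation factors, 2 were higher and 5 were lower (13.3% and 33.3%), shares near the 12.2% and 30.5% of all genes tested. *GFM1*, the elongation factor that moves the ribosome along the message, fell from 49.8 ± 1.03 to 30.8 ± 1.19 TPM (SD, n = 3 each; log2 fold change -0.68, limma adjusted p = 3.5e-05). The recycling factor gene *GFM2* (-0.35), the release factor homologue *MTRF1* (-0.39), the initiation factor gene *MTIF2* (-0.28) and *OXA1L*, which inserts new proteins into the inner membrane (-0.41), were also lower. *MTRF1L*, the main release factor, lies on chromosome 6. It rose from 7.30 ± 0.530 to 11.7 ± 0.858 TPM (log2 fold change 0.64, limma adjusted p = 0.000575). *C12orf65*, which rescues stalled ribosomes, rose by 0.21.

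Of 17 mitochondrial aminoacyl-tRNA synthetase genes, 5 were higher and 6 were lower (29.4% and 35.3%, against 12.2% and 30.5% of all genes tested). *RARS2* rose most, from 48.3 ± 4.57 to 91.1 ± 3.96 TPM (log2 fold change 0.91, limma adjusted p = 3.45e-05), followed by *VARS2* (0.41), *AARS2* (0.39), *FARS2* (0.29) and *EARS2* (0.22). The first 4 lie on chromosome 6. *PARS2* was lowest, at -0.35 (limma adjusted p = 0.00991), and among the others *LARS2*, *CARS2*, *HARS2* and *TARS2* fell by 0.20 to 0.32 on the log2 scale.

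Over the 4 lists of other ribosomal proteins, assembly factors, translation factors and synthetases, the 6 genes on chromosome 6 were all higher, with a median log2 fold change of 0.44. Over all 629 genes tested on chromosome 6, 62.3% were higher, with a median of 0.39. Of the other 57 genes of these lists, 7 were higher and 13 were lower (12.3% and 22.8%), with a median of -0.02. Of all genes placed off chromosome 6, 9.82% were higher and 32.2% lower, with a median of -0.12.

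**Figure D4:**
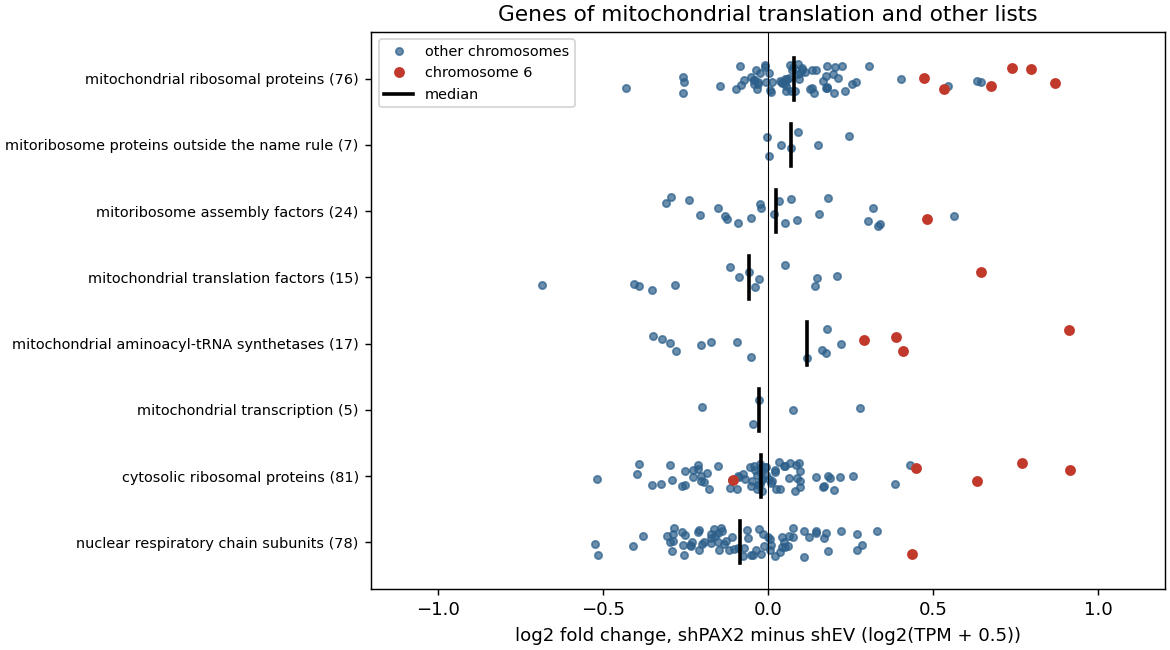
Log2 fold change (x axis, shPAX2 minus shEV) of the mitochondrial ribosomal protein genes and of the lists of related genes, with the number tested in brackets; red points lie on chromosome 6 and black bars are medians. The red points lie to the right of the median in each list that holds them except for 1 cytosolic ribosomal protein gene at -0.10, and 2 genes lie beyond the axis limit of 1.2.

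Among 5 genes of mitochondrial transcription, *TFB2M* was higher (log2 fold change 0.28, limma adjusted p = 0.00466). The termination factor gene *MTERF* was lower (-0.20, limma adjusted p = 0.0407), a call lost in 9 alternative analyses. That made 20% higher and 20% lower, against 12.2% and 30.5% of all genes tested. Of 8 tested regulators of nuclear genes for mitochondria, 0 were higher with limma (0 at an unadjusted p under 0.05, and 0 with voom). With limma 4 were lower (50%, against the same 30.5%). These were the coactivator gene *PPARGC1B* (-0.46), *MYC* (-0.35), the nuclear receptor gene *ESRRA* (-0.27) and *NRF1* (-0.24), with limma adjusted p from 0.0107 to 0.034. *PPRC1* had the highest value, 0.04, and *GABPA* and *YY1*, whose motif types were counted above, had log2 fold changes of -0.01 and -0.05 without passing the test.

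Genes named for proteins of the cytosolic ribosome, which makes these and all other nuclear products, were counted in the same way. They were taken by name pattern, so like-named genes such as *RPL7L1* are included. Of 81 tested genes 9 were higher and 14 were lower (11.1% and 17.3%, against the same 12.2% and 30.5%), with a median log2 fold change of -0.02. *RPS27* was lowest, at -0.52 (limma adjusted p = 0.000814). *RPL39* had the highest value, 1.88, with a wide spread (SE 0.61) and a limma adjusted p of 0.0676. Of the 5 on chromosome 6, 4 were higher (80%, against 62.3% of all genes tested on that chromosome).

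Nuclear subunits of the respiratory chain were taken by name pattern, which also took in the pseudogene name *ATP5EP2*. Of the 78 tested, 4 were higher and 23 were lower (5.13% and 29.5%, against 12.2% and 30.5% of all genes tested). Their median was -0.08, against -0.10 for all genes. *COX7A2*, on chromosome 6, was highest, at 412 ± 13.2 TPM in shEV and 558 ± 39.0 TPM in shPAX2 (log2 fold change 0.44, limma adjusted p = 0.000971). *NDUFA4L2*, an isoform induced by low oxygen, was the only one past a log2 fold change of 1. It was at 16.5, 27.2 and 66.2 TPM in shEV and at 3.74, 1.44 and 0.949 TPM in shPAX2 (log2 fold change -3.79, SE 0.70, limma adjusted p = 0.0139). With voom the adjusted p was 0.0504. No test compared these lists with the mitochondrial ribosomal protein genes.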

How the data were processed

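Libraries were made with a stranded total RNA kit. The authors deposited TPM values for 17471 genes by symbol. The submitters' processing notes name bcl2fastq, STAR, Subread, featureCounts, edgeR and hg19. The study's written RNA-seq methods, which give a STAR version, are for another cell line. The versions used for these libraries, and whether counting used strand, are not given in the sources used here.

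Genes with at least 0.5 TPM in 3 or more of the 6 libraries were tested, 13163 in all. Log2(TPM + 0.5) was fitted with limma 3.58.1 in R 4.3.3 (trended, robust moderation, two-sided), with Benjamini-Hochberg adjustment over all genes tested. Whole reads were recovered from the ratios of TPM within each gene (100.0% of genes within a relative deviation of 1e-11, up to a factor common to the libraries of a gene) and gave the library totals and the voom alternative. Symbols, older ones included, were matched to GENCODE positions on GRCh37 for 16476 genes (94.3%). RefSeq promoter windows were searched on both strands. The fit and the read recovery were tested on simulated data.

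The members, gene lists and named genes (the 8 highest and 8 lowest fold changes, the 5 highest levels, chromosome 6 and the *MRPS18* family, plus the highest and lowest gene of each other list and any past a log2 fold change of 1) were chosen with earlier results of these data known. No library was a duplicate of another, since chi-square per degree of freedom was 3.12 or more for every pair. Samples with the same replicate number did not deviate together (correlations over all genes of -0.0523, 0.0815 and 0.0014), so the numbers were not taken as pairs. Over the 76 genes alone the correlations were 0.142, 0.0075 and 0.438. The alternatives were other pseudocounts (0.1 and 1), filters, scalings, moderation, voom, a replicate block and leaving out each library.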

Additional observations from a re-analysis of the deposited data

How the results depend on the processing

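Against 21 genes called (17 higher, 4 lower; 14 large and 7 small subunit) and a median log2 fold change of 0.08, median-of-ratios scaling gave 41 (40 higher, 1 lower; 26 and 14) and a median of 0.19. This scaling moved the median of all genes from -0.10 to 0.01, and 97.6% of the group's calls were then higher, against 81.0%; over all genes that share went from 28.6% to 52.6%. Without the chromosome 6 genes 11 were higher. Without 1 library each, calls ran from 13 to 32, higher calls from 10 to 28, large subunit calls from 8 to 19 and small subunit calls from 4 to 12. The lowest totals came without shEV replicate 3 (13, with 10 higher and 8 large subunit), and higher calls were 11 without shEV replicate 2 (4 small subunit) and 10 without shPAX2 replicate 2 (9 large subunit). Without shPAX2 replicate 1 there were 32 calls, 28 higher and 12 small subunit. In each of these fits without 1 library the group left with 2 samples was assumed to vary like the other. With a replicate block 19 were called (15 higher, 4 lower), although no source says whether the numbers pair the samples. The signs of *MRPS14* (0.03), *MRPL46* (0.03) and *MRPS30* (0.02) reversed with median-of-ratios scaling, and those of *MRPS14* (0.02) and *MRPL51* (-0.03) with quantile normalization. *MRPL51* was also at -0.00, -0.00 and -0.01 without shEV replicate 2, shPAX2 replicate 2 and shPAX2 replicate 3. *CHCHD1* was at 0.11 with median-of-ratios scaling, at 0.01 with rescaling without the abundant *RPPH1* and *RMRP*, at 0.01 with voom, and at 0.02 and 0.03 without shEV replicate 2 and shPAX2 replicate 1. *PPRC1* was at -0.02 and -0.01 without shPAX2 replicate 2 and 3, and at 0.17 without shPAX2 replicate 1. Why the signs and counts moved was not tested. *PAX2* stayed lower wherever it was tested and was not tested with a filter at 5 TPM. The other values of named genes of the group kept direction and side of the threshold in 335 cases, with 7 weaker and 1 stronger. For the named genes of the other lists there were 227 such cases, with 18 weaker, 3 stronger and 7 reversed; the weaker ones were *MTERF*, *NDUFA4L2*, *AURKAIP1*, *PARS2* and *PPARGC1B*. The genes with the fewest reads, 153 in the shallowest case, carry the most counting error.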
